A study of Mus musculus with 4 samples.

Results

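The keratin gene family comprised every gene whose symbol in the deposited gene list was Krt followed by a number and nothing else, which gave 46 genes of the 27999 listed. Of these, 24 lay on chromosome 11 and 22 on chromosome 15. They were described in single-cell RNA-seq libraries made from cells sorted to enrich the mesenchyme of mouse hair follicles, so the family is one that the sorted cell types were not chosen for.

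The study compared hair follicle mesenchyme between ages, with 1 library from 18-month mice (18mo v2) and 1 from 2-month mice (2mo v2) made with version 2 of the 10x Genomics 3′ chemistry, and 1 library from 12-month mice (12mo v3) and 1 from 2-month mice (2mo v3) made with version 3. All mice were C57BL/6J, carried α-SMACreERT2, a tamoxifen-activated Cre driven by the smooth muscle actin promoter, and received 4-hydroxytamoxifen on postnatal days 3 and 4. The recombination reporter was labelled RosaYFP in the 18mo v2 and 2mo v2 libraries and RosaTDTomato in the 12mo v3 and 2mo v3 libraries. The extraction text of all 4 samples names RosaYFP, so the reporter of the v3 libraries is uncertain, and as labelled it changed together with the chemistry. Back skin was treated with dispase, its epidermis was taken off, and the dissociated dermis was sorted for cells that had the reporter or Cd26 together with Itga9 or Cd200. Each library was labelled with 10000 sorted cells from 2 mice, with no statement of whether the mice were pooled. The study's design text counts 12 months among the young ages. Here the 18mo v2 and 12mo v3 libraries were each set against the 2mo library of the same chemistry, and as a pair against both 2mo libraries.

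Keratins are the intermediate filament proteins of epithelial cells. A type I keratin, encoded in mouse by the cluster on chromosome 11, pairs with a type II keratin from chromosome 15, and the pair in use marks the layer and the stage of a keratinocyte. Krt5 and Krt14 mark the basal layer, Krt1 and Krt10 the layers above it, and further pairs belong to the outer root sheath, to the inner root sheath that moulds a growing hair, and to the hair shaft; inner root sheath and shaft cells are made during the growth phase of the follicle.

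Libraries held between 1906 and 7023 cell barcodes and between 17831300 and 77032628 UMIs (unique molecular identifiers, 1 per captured transcript molecule). After filtering, 2430 cells of 18mo v2, 1677 of 2mo v2, 3964 of 12mo v3 and 5388 of 2mo v3 were kept, with median UMIs per cell of 6588, 6260, 11787 and 11934. The v3 libraries shared 84 barcodes with each other, 1.535% of the smaller one. The labels give 3776 recovered cells for 18mo v2 and 2604 for 2mo v2, against 2727 and 1906 barcodes in their files, and the design text gives the count of 1906 to its other sample, so the assignment of those libraries rests on the deposited file names. A level below is CPM, a gene's UMIs divided by all UMIs of the named cells of a library and scaled to the usual fixed total. UMIs were counted at transcript 3′ ends and not divided by length.

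No keratin was used to cluster or name cells. Clusters with markers of keratinocytes (epithelial cells of epidermis and follicle), such as Krtdap, Flg, Col17a1 and Trp63, held 147 of the kept cells in 18mo v2 (6.05%), 259 in 2mo v2 (15.4%), 219 in 12mo v3 (5.52%) and 306 in 2mo v3 (5.68%). The 2mo v2 library stood apart, with a higher share of keratinocyte-like cells than any other. In summed libraries, fewer cells of a type and less RNA per cell cannot be told apart. Exact intervals below cover counting error only, at 95%, and since few cells can hold most UMIs of a gene they are too narrow for the libraries themselves. The labels do not state whether the 2mo libraries differ in litter or day, nor the older ones, so p-values measure only the spread between these libraries.

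All keratins together made up 0.453% of UMIs in 18mo v2, 2.48% in 2mo v2, 0.335% in 12mo v3 and 0.340% in 2mo v3. Of the 46 members, 27 had at least 50 UMIs in kept cells of a library, with maxima from 54 for Krt7 to 191648 for Krt10. Another 18 reached between 1 and 49 UMIs in their highest library (Krt4, Krt9, Krt12, Krt13, Krt24, Krt26, Krt34, Krt36, Krt39, Krt42, Krt72, Krt74, Krt76, Krt81, Krt82, Krt83, Krt84 and Krt86), and Krt40 had none. Members of every epidermal and follicular layer were therefore read in cells sorted for mesenchyme.

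**Figure D1:**
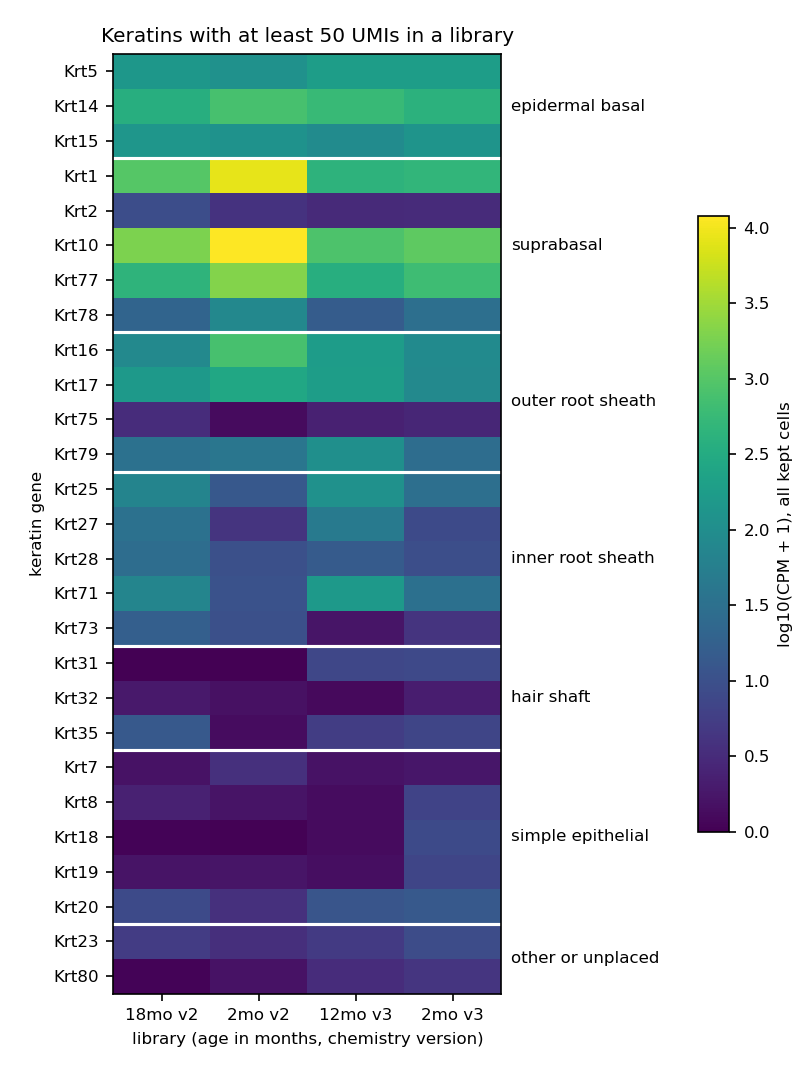
Level of the 27 keratins with at least 50 UMIs in a library, as log10(CPM + 1) over all kept cells (colour), by library (columns) and keratin group (rows, split by white lines). Krt1, Krt10 and Krt77 reach the highest values and are brightest in 2mo v2, while Krt31 is at 0 in both v2 libraries.

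Epidermal keratins carried most of the family's UMIs. The suprabasal group (Krt1, Krt2, Krt9, Krt10, Krt77 and Krt78) made up 74.7% of keratin UMIs in 18mo v2, 91.3% in 2mo v2, 50.1% in 12mo v3 and 68.5% in 2mo v3. Krt10, the type I keratin of differentiating epidermis, had 1902 CPM in 18mo v2 against 11929.9 CPM in 2mo v2, and 872.9 CPM in 12mo v3 against 1150 CPM in 2mo v3. Its partner Krt1 had 1006 CPM in 18mo v2 against 8546 CPM in 2mo v2, and 433.1 CPM in 12mo v3 against 489.7 CPM in 2mo v3. Krt77, another suprabasal type II keratin, had 453.2 CPM in 18mo v2 against 2072 CPM in 2mo v2, and 352.6 CPM in 12mo v3 against 655.7 CPM in 2mo v3. All 3 were highest in 2mo v2, and both older libraries lay below the 2mo library of their own chemistry.

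Krt78, also suprabasal, had 19.2 CPM in 18mo v2 against 80.1 CPM in 2mo v2, and 14.5 CPM in 12mo v3 against 29.7 CPM in 2mo v3. Krt2, which marks late epidermal differentiation, ran the other way in the v2 pair, with 8.19 CPM in 18mo v2 against 2.93 CPM in 2mo v2, but 43.9% of the 18mo v2 UMIs lay in 1 cell. In the v3 pair Krt2 had 2.04 CPM in 12mo v3 and 2.20 CPM in 2mo v3. Krt9, known from palm and sole skin, had at most 2 UMIs in a library.

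Summed over the group, suprabasal keratins had 3389 CPM in 18mo v2 against 22631 CPM in 2mo v2, a 6.68-fold lower level (ratio 0.150, interval 0.148 to 0.151). They had 1675 CPM in 12mo v3 against 2327 CPM in 2mo v3 (ratio 0.720, interval 0.714 to 0.726). The share of keratinocyte-like cells moved with the v2 difference, at 6.05% of kept cells in 18mo v2 against 15.4% in 2mo v2. Within keratinocyte-like cells the suprabasal level was 24736 CPM in 18mo v2 against 56383 CPM in 2mo v2 (ratio 0.439, interval 0.435 to 0.442), and 15284 CPM in 12mo v3 against 20605 CPM in 2mo v3 (ratio 0.742). The group was thus lower in the older library in both pairs and in both cell sets.

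The basal keratins Krt5 and Krt14, which pair in the proliferative layer, and Krt15, a type I keratin of basal and hair follicle stem cells, had a lower summed level than the suprabasal group in each library. Krt14 had 352.6 CPM in 18mo v2 against 789.1 CPM in 2mo v2, and 564.4 CPM in 12mo v3 against 420.8 CPM in 2mo v3. Krt5 had 143.1 CPM in 18mo v2 against 112.9 CPM in 2mo v2, and 181.6 CPM in 12mo v3 against 185.1 CPM in 2mo v3. Krt15 had 139.0 CPM in 18mo v2 against 118.6 CPM in 2mo v2, and 91.2 CPM in 12mo v3 against 127.0 CPM in 2mo v3. No basal member was on the same side of its 2mo library by more than 1.5-fold in both pairs.

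The basal group as a whole had 634.7 CPM in 18mo v2 against 1021 CPM in 2mo v2 (ratio 0.622, interval 0.607 to 0.637), and 837.2 CPM in 12mo v3 against 732.8 CPM in 2mo v3 (ratio 1.14, interval 1.13 to 1.16). Within keratinocyte-like cells alone the v2 ratio was on the other side of 1, at 4786 CPM in 18mo v2 against 2541 CPM in 2mo v2 (ratio 1.88, interval 1.84 to 1.93). The v3 ratio in these cells was 1.18. The direction of the v2 comparison therefore turned with the set of cells counted.

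Keratinocyte-like cells fell into clusters 3 and 14, and the keratins, which had no part in making them, separated these clusters. Cluster 3, led by Krtdap, Flg, Sbsn and Klk7, had 59 cells in 18mo v2, 217 in 2mo v2, 95 in 12mo v3 and 159 in 2mo v3. Cluster 14, led by Col17a1, Trp63, Hoxc13 and Lhx2, had 88, 42, 124 and 147 cells in the same libraries. Krt10 had 26010 CPM in cluster 3 of 18mo v2 and 365.2 CPM in its cluster 14, 32271 and 1329 CPM in 2mo v2, 14279 and 69.3 CPM in 12mo v3, and 15523 and 91.2 CPM in 2mo v3. Krt5 was reversed, with 58.5 CPM in cluster 3 of 18mo v2 and 2198 CPM in its cluster 14, 13.6 and 3253 CPM in 2mo v2, 143.7 and 3570 CPM in 12mo v3, and 228.0 and 4377 CPM in 2mo v3. By CPM, Krt10 thus stood higher in cluster 3 and Krt5 in cluster 14 in each of the 4 libraries. Krt14 also had the higher CPM in cluster 14 but was not confined to it. In 2mo v2 cluster 3 held 7400 Krt14 UMIs (1272 CPM) and cluster 14 held 5054 (9654 CPM). In 12mo v3 they held 7533 (2589 CPM) and 20318 (8535 CPM). Cluster 3 made up 40.1% of keratinocyte-like cells in 18mo v2 against 83.8% in 2mo v2, and 43.4% in 12mo v3 against 52.0% in 2mo v3, and this balance moved with the suprabasal and basal levels above.

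Taken cluster by cluster, the group ratios were not those of the joined keratinocyte-like cells. Basal keratins had 8859.99 CPM in cluster 14 of 18mo v2 against 16255 CPM in 2mo v2 (ratio 0.545, interval 0.530 to 0.561), and 1079.8 CPM in cluster 3 of 18mo v2 against 1306 CPM in 2mo v2 (ratio 0.827, interval 0.780 to 0.875). The v2 ratio of 1.88 in joined keratinocyte-like cells thus stood beside ratios under 1 in both of their clusters. In the v3 pair the basal ratio was 0.823 in cluster 14 and 2.39 in cluster 3. Suprabasal keratins had 46522 CPM in cluster 3 of 18mo v2 against 61204 CPM in 2mo v2 (ratio 0.760, interval 0.754 to 0.767), and 27663 CPM in 12mo v3 against 31376 CPM in 2mo v3 (ratio 0.882, interval 0.874 to 0.889). Within cluster 3 the suprabasal group stayed lower in the older library of both pairs, by less than in all kept cells.

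Outer root sheath and companion layer keratins differed in direction between the pairs. Krt16, a type I keratin induced in stressed epidermis and present in the outer root sheath, had 81.5 CPM in 18mo v2 against 783.7 CPM in 2mo v2, and 180.7 CPM in 12mo v3 against 88.7 CPM in 2mo v3. A single cell held 54.7% of the Krt16 UMIs of 18mo v2. Krt17, which shares those sites, had 151.0 CPM in 18mo v2 against 264.8 CPM in 2mo v2, and 183.5 CPM in 12mo v3 against 80.8 CPM in 2mo v3. Over all kept cells both were lower in 18mo v2 and higher in 12mo v3 than in the matching 2mo library. Within keratinocyte-like cells Krt17 turned in the v2 pair, with 1102 CPM in 18mo v2 against 660.0 CPM in 2mo v2 (ratio 1.67, interval 1.59 to 1.75), and stayed higher in 12mo v3, at 1707 CPM against 698.9 CPM in 2mo v3.

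Krt79, known from the upper follicle canal, had 31.8 CPM in 18mo v2 against 39.5 CPM in 2mo v2, and 106.1 CPM in 12mo v3 against 27.5 CPM in 2mo v3. Krt75, a keratin of the companion layer between outer and inner sheath, had 2.35 CPM in 18mo v2 against 0.311 CPM in 2mo v2, and 1.37 CPM in 12mo v3 against 1.74 CPM in 2mo v3. The group sum was 266.6 CPM in 18mo v2 against 1088 CPM in 2mo v2, 4.08-fold lower (ratio 0.245, interval 0.237 to 0.253), and 471.6 CPM in 12mo v3 against 198.7 CPM in 2mo v3 (ratio 2.37, interval 2.32 to 2.42). The group ratio was 0.620 in cluster 3 and 1.26 in cluster 14 for the v2 pair, and 4.18 in cluster 3 and 0.861 in cluster 14 for the v3 pair, so the direction in both pairs depended on the cluster. Krt6a and Krt6b, stress-induced type II keratins outside the symbol rule, also stood high in 2mo v2. Krt6b had 47.3 CPM in 18mo v2 against 484.1 CPM in 2mo v2, and 40.3 CPM in 12mo v3 against 0.300 CPM in 2mo v3, so it took the same directions as Krt16.

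Inner root sheath keratins were read in all 4 libraries, so every library carried growth-phase transcripts, but most of the UMIs came from very few cells. Krt71 (chr15:101733949-101743109, minus strand, GRCm38), a type II keratin of the inner root sheath layers, had 71.3 CPM in 18mo v2 against 9.84 CPM in 2mo v2, and 152.5 CPM in 12mo v3 against 30.5 CPM in 2mo v3. Krt25 (chr11:99315516-99322951, minus strand), a type I keratin of the same layers, had 67.4 CPM in 18mo v2 against 12.2 CPM in 2mo v2, and 116.3 CPM in 12mo v3 against 29.6 CPM in 2mo v3. Krt27, also type I, had 32.4 CPM in 18mo v2 against 3.17 CPM in 2mo v2, and 45.3 CPM in 12mo v3 against 7.16 CPM in 2mo v3. All 3 were higher in the older library of both pairs.

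One cell held 66.9% of the Krt71 UMIs in 18mo v2 and 89.9% in 12mo v3, against 31.6% in 2mo v2 and 17.5% in 2mo v3. Krt28, the remaining abundant type I member, had 27.9 CPM in 18mo v2 against 8.78 CPM in 2mo v2, and 13.9 CPM in 12mo v3 against 8.53 CPM in 2mo v3. Krt73, a type II keratin of the inner root sheath cuticle, had 15.9 CPM in 18mo v2 against 8.78 CPM in 2mo v2, but 0.713 CPM in 12mo v3 against 3.14 CPM in 2mo v3. Krt26, Krt72 and Krt74 stayed under 50 UMIs in every library. Among the 5 members with at least 50 UMIs in a library, Krt73 did not share the direction of the others in the v3 pair.

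The promoters of the inner root sheath genes shared a feature that the grouping did not use. Promoter sequences of 300 bases, from 250 before to 50 after the start site, were matched in RefSeq (build GRCm38.p6) for 34 of the 46 members. The letters TATAAA, those of a TATA box, the promoter element bound by the basal transcription machinery, were found on either strand in the promoters of all 7 inner root sheath members that matched and of 5 of 8 hair shaft members, against 0 of 2 basal, 1 of 5 suprabasal (Krt10), 0 of 2 outer root sheath and 2 of 4 simple epithelial members. Of 6 members with no placed layer, 3 held them. In all, 18 of the 34 members (52.94%) and 15.67% of 27025 genes with a promoter in the table held them. On the gene's own strand and between 45 and 20 bases before the start, they stood in 5 of the 7 inner root sheath members. They also stood there in 4 of the 8 hair shaft members, in 13 of the 34 keratins (38.24%) and in 695 of the 27025 genes (2.572%). The 5 inner root sheath sites are shown in windows of 40 bases from the strand of the gene, with TATAAA in capitals, because they let the members be read side by side.

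Krt25 (chr11:99322956-99322995, minus strand): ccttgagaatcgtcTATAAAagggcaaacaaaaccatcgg
Krt26 (chr11:99337970-99338009, minus strand): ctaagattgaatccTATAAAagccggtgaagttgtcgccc
Krt28 (chr11:99374908-99374947, minus strand): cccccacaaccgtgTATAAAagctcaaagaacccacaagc
Krt71 (chr15:101743112-101743151, minus strand): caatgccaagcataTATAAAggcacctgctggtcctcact
Krt73 (chr15:101802365-101802404, minus strand): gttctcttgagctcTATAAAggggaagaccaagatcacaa

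The first base of TATAAA lay 30 bases before the annotated start in Krt25, Krt26, Krt28 and Krt73 and 40 bases before it in Krt71. The whole promoter of Krt71, the inner root sheath keratin with the highest CPM in 18mo v2, 12mo v3 and 2mo v3, is given next, again with TATAAA in capitals.

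Krt71 (chr15:101743048-101743347, minus strand): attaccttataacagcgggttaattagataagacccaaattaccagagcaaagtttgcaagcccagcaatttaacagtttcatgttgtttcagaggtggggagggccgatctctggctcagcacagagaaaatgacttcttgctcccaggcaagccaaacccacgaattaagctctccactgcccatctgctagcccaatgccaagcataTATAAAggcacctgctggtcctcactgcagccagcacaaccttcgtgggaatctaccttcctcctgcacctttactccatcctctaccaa

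A GATA-factor motif, AGATAAG on either strand, was in the promoters of Krt71 and Krt73 among inner root sheath members and of Krt8, and in 3.044% of the 32851 promoters in the table. The LEF/TCF motif CTTTGTT was in those of Krt25 and Krt42 (5.851% of all promoters) and CTTTGAT in that of Krt2 (3.729%). These matches describe letters in a window and no binding was measured.

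Cells carrying inner root sheath keratins were counted directly, as keratinocyte-like cells with at least 10 UMIs summed over the group. They numbered 19 of 147 in 18mo v2 (12.9%, exact Clopper-Pearson interval 7.96% to 19.4%) against 8 of 259 in 2mo v2 (3.09%, interval 1.34% to 6.00%). They numbered 36 of 219 in 12mo v3 (16.4%, interval 11.8% to 22.02%) against 34 of 306 in 2mo v3 (11.1%, interval 7.82% to 15.2%). The intervals of the v2 pair were apart and those of the v3 pair overlapped. Counted over all kept cells of any type, carriers numbered 20 in 18mo v2 (0.823%) against 8 in 2mo v2 (0.477%), and 37 in 12mo v3 (0.933%) against 34 in 2mo v3 (0.631%). Their intervals overlapped in both pairs, at 0.503% to 1.27% in 18mo v2 against 0.206% to 0.938% in 2mo v2, and 0.658% to 1.28% in 12mo v3 against 0.437% to 0.881% in 2mo v3. Within cluster 14 alone they were 19 of 88 cells in 18mo v2 (21.6%, interval 13.5% to 31.6%) against 8 of 42 in 2mo v2 (19.05%, interval 8.60% to 34.1%), and 35 of 124 in 12mo v3 (28.2%, interval 20.5% to 37.01%) against 34 of 147 in 2mo v3 (23.1%, interval 16.6% to 30.8%). The v2 shares that were apart in joined keratinocyte-like cells thus overlapped inside the cluster that held the carriers.

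Median depth of keratinocyte-like cells was 12991 UMIs in 18mo v2, 25571 in 2mo v2, 19691 in 12mo v3 and 18975 in 2mo v3. With each cell thinned to 2000 UMIs and at least 3 UMIs of the group required, a setting chosen after seeing the data, carriers were 10.2% in 18mo v2 against 2.70% in 2mo v2, and 8.80% in 12mo v3 against 7.93% in 2mo v3; 3 cells of 12mo v3 and 16 of 2mo v3 were too shallow and were left out. At equal depth 18mo v2 stayed above 2mo v2, and the v3 libraries lay closer together than in the unthinned cells. All but 1 of the keratinocyte-like carriers lay in cluster 14. Their keratinocyte marker genes summed to medians of 5911 CPM in 18mo v2, 15675 CPM in 2mo v2, 5570 CPM in 12mo v3 and 5829 CPM in 2mo v3, beside 30061, 79655, 40900.2 and 54981 CPM in the other keratinocyte-like cells of these libraries.

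Clustered more finely, at resolution 1, cluster 14 separated into a part with basal keratins and a part with growth-phase keratins. The 234 cells of the first part held no carrier, and their basal keratins reached 14353 CPM in 18mo v2, 21767 CPM in 2mo v2, 22543 CPM in 12mo v3 and 26190 CPM in 2mo v3. The 167 cells of the second part, led by Tchh, the trichohyalin of inner root sheath and medulla, with S100a3, Dlx3, Hoxc13 and Mki67, held 96 inner root sheath carriers and 20 hair shaft carriers. Their inner root sheath keratins reached 8478 CPM in 18mo v2, 4455 CPM in 2mo v2, 16705 CPM in 12mo v3 and 3740 CPM in 2mo v3. It met too few keratinocyte markers to be named, and held 36 cells of 18mo v2, 15 of 2mo v2, 52 of 12mo v3 and 64 of 2mo v3. Basal keratins in it were lower than in the first part, at 590.9 CPM in 18mo v2, 1869 CPM in 2mo v2, 1047 CPM in 12mo v3 and 1252 CPM in 2mo v3, but not absent. Of the carriers in cluster 14, 6 of 19 in 18mo v2, 1 of 8 in 2mo v2, 23 of 35 in 12mo v3 and 16 of 34 in 2mo v3 also had at least 10 basal keratin UMIs.

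**Figure D2:**
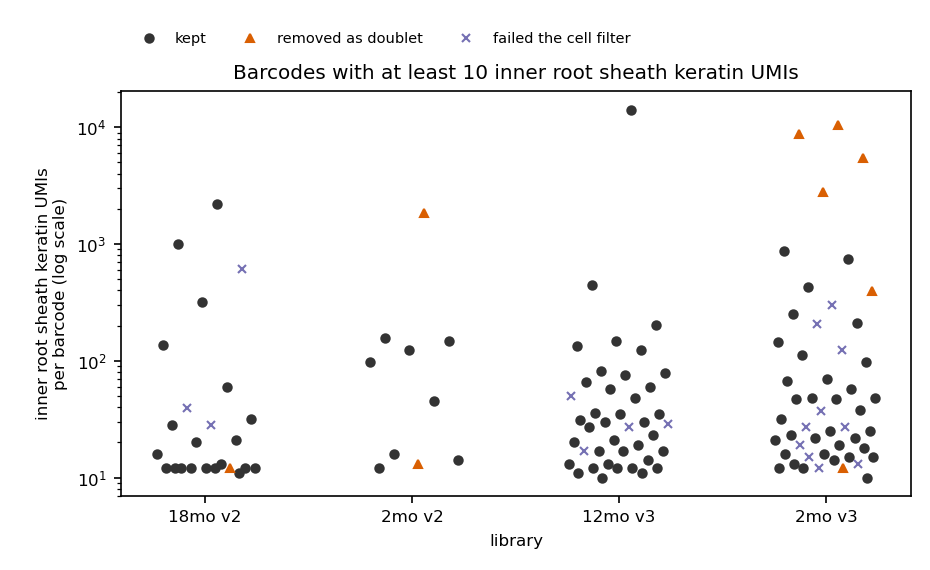
Inner root sheath keratin UMIs per barcode (log scale) for every deposited barcode with at least 10 of them, by library, with marks for barcodes kept, removed as doublets or failing the cell filter. A kept barcode with 14148 UMIs tops 12mo v3, while the 4 highest barcodes of 2mo v3 and the highest of 2mo v2 were removed as doublets.

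Summed over the group and all kept cells, inner root sheath keratins had 214.9 CPM in 18mo v2 against 42.8 CPM in 2mo v2 (ratio 5.03, interval 4.63 to 5.46), and 328.7 CPM in 12mo v3 against 79.1 CPM in 2mo v3 (ratio 4.16, interval 4.03 to 4.28). These ratios rest on single barcodes. In 12mo v3, 1 kept cell held 14148 of the 16599 inner root sheath UMIs, 85.2%, and they made up 40.5% of that cell's transcripts. Without the top cell of each library the v3 ratio was 0.727 and the v2 ratio 3.04. Within cluster 14 the ratios were 2.74 in the v2 pair and 4.75 in the v3 pair, and 1.64 and 0.786 without the top cells. The v3 difference therefore changed direction with 1 cell per library.

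The doublet step also decided the comparison. The 3% of cells with the highest doublet scores were removed from each library, and in 2mo v3 these held 80.5% of the inner root sheath UMIs, in 2mo v2 73.0%, but 0.414% in 18mo v2 and 0.148% in 12mo v3. In 2mo v3 the removed barcodes included 4 with 10467, 8677, 5440 and 2788 inner root sheath UMIs, which had 24730 to 37684 CPM of keratinocyte markers and 339 to 527 CPM of collagen genes. In 2mo v2 the removed barcodes included 1 with 1850. Over all deposited barcodes the group had 229.4 CPM in 18mo v2 against 143.8 CPM in 2mo v2 (ratio 1.60), and 304.3 CPM in 12mo v3 against 449.1 CPM in 2mo v3 (ratio 0.678). Which of these barcodes are doublets was not tested. Carriers among all barcodes numbered 24 of 2727 in 18mo v2 (0.880%, interval 0.565% to 1.31%) against 10 of 1906 in 2mo v2 (0.525%, interval 0.252% to 0.963%). In the v3 pair they were 41 of 5474 in 12mo v3 (0.749%, interval 0.538% to 1.01%) against 50 of 7023 in 2mo v3 (0.712%, interval 0.529% to 0.938%). Unlike the v3 CPM ratio, the carrier shares kept their direction in both pairs, with overlapping intervals.

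Hair shaft keratins were rarer and were close to absent from 2mo v2. Krt35, a type I keratin of the shaft's matrix and cortex, had 12.5 CPM in 18mo v2 against 0.374 CPM in 2mo v2 (240 UMIs against 6), and 4.495 CPM in 12mo v3 against 6.04 CPM in 2mo v3. Krt31, a type I cortex keratin, had no UMI in 18mo v2 or 2mo v2, and 6.38 CPM in 12mo v3 against 6.91 CPM in 2mo v3, of which 1 cell in each held 97.8% and 89.0%. Krt32, known from the hair cuticle, had 0.886 CPM in 18mo v2 against 0.498 CPM in 2mo v2, and 0.277 CPM in 12mo v3 against 1.11 CPM in 2mo v3. Among the rest of the group, Krt83 and Krt86 had no UMI in 18mo v2 or 2mo v2, and had 37 and 30 UMIs in 12mo v3 and 40 and 41 UMIs in 2mo v3.

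The group had 13.7 CPM in 18mo v2 against 1.18 CPM in 2mo v2 (262 UMIs against 19; ratio 11.5, interval 7.25 to 19.5), and 13.4 CPM in 12mo v3 against 16.7 CPM in 2mo v3 (ratio 0.805, interval 0.732 to 0.886). Carriers with at least 10 shaft keratin UMIs were 4 of 147 keratinocyte-like cells in 18mo v2 (2.72%, interval 0.746% to 6.82%) against 0 of 259 in 2mo v2, where a limit of 3 counts allows a share of up to 1.16% and the exact upper bound is 1.41%, and 8 of 219 in 12mo v3 (3.65%, interval 1.59% to 7.07%) against 8 of 306 in 2mo v3 (2.61%, interval 1.14% to 5.09%). The intervals of both pairs overlapped. Cells that carried both inner root sheath and shaft keratins at this level numbered 1 in 18mo v2, 0 in 2mo v2, 2 in 12mo v3 and 2 in 2mo v3. The 2mo v2 library did hold 1 barcode with 37 shaft keratin UMIs, which was removed as a doublet.

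**Figure D3:**
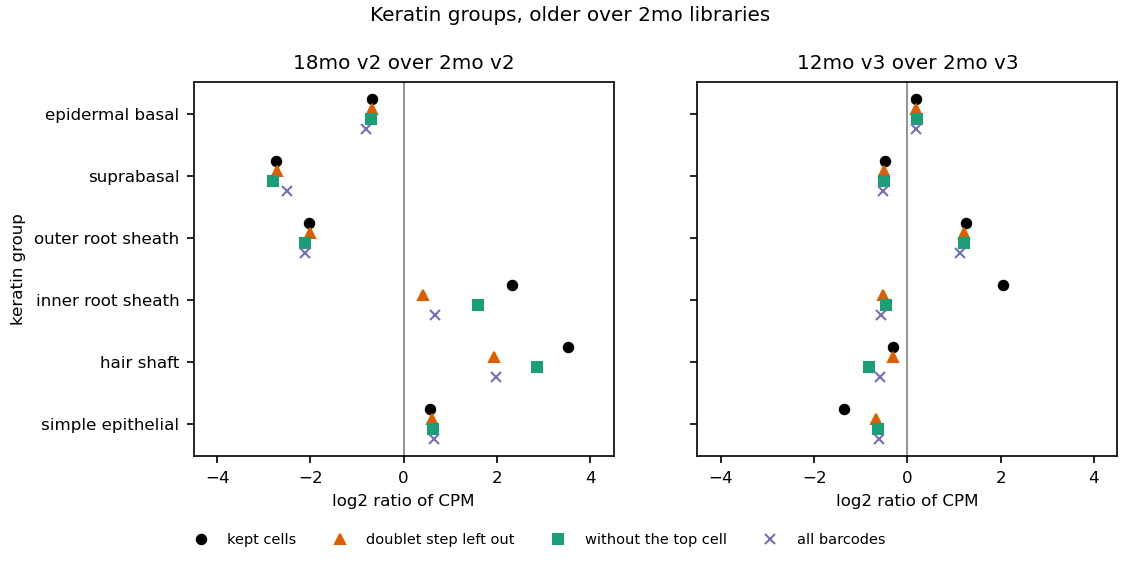
Log2 ratio of the summed CPM of each keratin group, 18mo v2 over 2mo v2 (left) and 12mo v3 over 2mo v3 (right), for kept cells and 3 other sets of cells. Inner root sheath ratios move most between the sets, and in the v3 pair lie at 2.06 in kept cells and below 0 in the other 3.

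The simple epithelial keratins Krt8 and Krt18, a type II and type I pair of single-layered epithelia that also marks Merkel cells, were read mostly in 2mo v3 among kept cells. There Krt18 had 2, 1 and 16 UMIs in 18mo v2, 2mo v2 and 12mo v3, against 497 in 2mo v3. Krt8 had 27, 10, 18 and 387 UMIs in the same order of libraries. In 2mo v3 a single cell held 76.7% of the Krt18 UMIs and 78.8% of the Krt8 UMIs, and 2 cells of cluster 14 had at least 10 UMIs each of Krt8, Krt18 and Krt19. Over all deposited barcodes Krt18 had 244 UMIs in 12mo v3 against 520 in 2mo v3 (ratio 0.652, beside 0.0446 in kept cells), and Krt8 had 119 against 409 (ratio 0.405, beside 0.0645). The filter and the doublet step therefore took most of the 12mo v3 UMIs of both genes. Krt7, of glandular and simple epithelia, had at most 54 UMIs in a library. Among members with no placed layer, Krt23 had 4.38 CPM in 18mo v2 against 2.55 CPM in 2mo v2, and 3.901 CPM in 12mo v3 against 7.75 CPM in 2mo v3. Krt80, a type II keratin of differentiating epithelia, had 0.104 CPM in 18mo v2 against 0.560 CPM in 2mo v2, and 2.26 CPM in 12mo v3 against 3.28 CPM in 2mo v3.

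Counted member by member at a 2-fold threshold among genes with at least 50 UMIs in either library, 7 of 19 keratins were higher in 18mo v2 than in 2mo v2 (Krt2, Krt20, Krt25, Krt27, Krt28, Krt35 and Krt71), where 6.77% of all genes were, and 6 were lower (Krt1, Krt10, Krt14, Krt16, Krt77 and Krt78), where 5.53% of all genes were. In the v3 pair 6 of 27 were higher in 12mo v3 than in 2mo v3 (Krt16, Krt17, Krt25, Krt27, Krt71 and Krt79), against 2.69% of all genes, and 6 were lower (Krt8, Krt18, Krt19, Krt32, Krt73 and Krt78), against 5.13%. Only Krt25, Krt27 and Krt71 were past this fold upwards in both pairs and only Krt78 downwards in both. With 1 library on each side these counts have no replicate check, and the values of Krt25 and Krt71 in the v3 pair turn without the top cell (ratios 0.558 and 0.613). Krt27 there had a ratio of 6.33, and 1.27 without the top cell, so none of the 3 kept its 2-fold in the v3 pair.

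Within keratinocyte-like cells 11 of 18 members were past the fold upwards in 18mo v2 (14.1% of all genes) and 3 downwards (3.71%), and 6 of 25 upwards in 12mo v3 (2.15%) and 5 downwards (2.53%). The 11 included Krt5, at 1078 CPM in 18mo v2 against 281.0 CPM in 2mo v2, and Krt15, at 1051 CPM against 295.6 CPM. Inside cluster 14 both were lower in 18mo v2, Krt5 at 2198 against 3253 CPM and Krt15 at 2107 against 3348 CPM. Inside cluster 3 both were higher, at 58.5 against 13.6 CPM and 90.0 against 20.8 CPM. In 18mo v2 the top cell of cluster 3 held 71.1% of its Krt5 UMIs, and for Krt15 44.4%. Krt5 was read in 5.08% of cluster 3 cells of 18mo v2 against 15.7% in 2mo v2, and Krt15 in 18.6% against 8.76%. The 3 past the fold downwards were Krt1, Krt10 and Krt16. The median log2 ratio of the members tested was 1.88 in the v2 pair and -0.45 in the v3 pair, beside 0.25 and -0.03 over all genes tested.

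Across both chemistries, no keratin reached the threshold in all kept cells. With edgeR's quasi-likelihood test on summed UMIs, older against 2mo libraries with chemistry as a covariate and Benjamini-Hochberg adjustment, 0 of 31 keratins tested were called higher and 0 lower at an adjusted p of 0.05, and 0% of the 15458 genes were called in either direction. At an unadjusted p of 0.05, 7 keratins and 1700 genes passed, and DESeq2 called 3 keratins higher and 2 lower. The 7 were Krt27, with a log2 difference of 2.98 ± 0.19 (SE, 2 libraries a side), Krt71 (2.58 ± 0.17), Krt25 (2.21 ± 0.16), Krt28 (1.17 ± 0.24), Krt78 (-1.54 ± 0.35), Krt77 (-1.54 ± 0.44) and Krt18 (-3.70 ± 1.05). The lowest adjusted p from edgeR's quasi-likelihood test was 0.143, for Krt25, Krt27 and Krt71. Over all deposited barcodes the Krt71 difference was -0.10 (adjusted p = 0.935). The design leaves 1 residual degree of freedom.

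In keratinocyte-like cells edgeR's quasi-likelihood test called 0 of 28 keratins and 0% of 11137 genes in either direction, with 6 keratins and 679 genes under an unadjusted p of 0.05; DESeq2 called 3 higher (Krt25, Krt27 and Krt71) and 0 lower. Log2 differences were 3.95 ± 0.40 for Krt27, 3.54 ± 0.44 for Krt71, 3.07 ± 0.43 for Krt25, 1.79 ± 0.51 for Krt28, 1.4998 ± 0.49 for Krt79 and -0.96 ± 0.29 for Krt78 (SE, 2 libraries a side). All 5 inner root sheath members tested lay above 0, with a median of 3.07 beside 0.02 over all genes. The summed inner root sheath ratio in these cells was 15.5 in the v2 pair and 6.07 in the v3 pair, and 9.26 and 1.01 without the top cell of each library. With the doublet step left out, keratinocyte-like cells held 4039 inner root sheath UMIs in 18mo v2 against 2532 in 2mo v2, and 16236 in 12mo v3 against 31202 in 2mo v3.

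Genes that work with keratins were read beside them, from lists chosen with earlier results of these data known. Of 20 genes for keratin filament anchorage and bundling (desmosome, hemidesmosome and plakin genes), 18 were tested in all kept cells, 0 were called, 2 lay above 0 and 16 below, with a median log2 difference of -1.03 beside -0.00 over all genes. Flg, the filament-bundling filaggrin of the outer epidermis, had 103.4 CPM in 18mo v2 against 1139 CPM in 2mo v2, and 31.8 CPM in 12mo v3 against 65.1 CPM in 2mo v3. Dsp, the desmoplakin that ties keratins to desmosomes, had 125.8 CPM in 18mo v2 against 503.1 CPM in 2mo v2, and 113.8 CPM in 12mo v3 against 169.7 CPM in 2mo v3. Both took the directions of the suprabasal keratins.

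Of 71 growth-phase follicle genes other than keratins, most of them keratin-associated protein genes, 15 were tested and 0 called; 10 lay above 0 and 5 below in all kept cells (median 0.21), and 13 above and 2 below in keratinocyte-like cells (median 1.02 beside 0.02 over all genes). Tchh had 71.2 CPM in 18mo v2 against 10.8 CPM in 2mo v2, and 37.3 CPM in 12mo v3 against 47.0 CPM in 2mo v3, with 81.7% of the 18mo v2 UMIs in 1 cell. Tchh therefore stood lower in 12mo v3 than in 2mo v3, while Krt71 stood higher in 12mo v3. Single cells weighed on both genes. In 12mo v3, 1 cell held 89.9% of the Krt71 UMIs, and the Krt71 direction turned without the top cells. The 12mo v3 cell with 14148 inner root sheath UMIs also held 1020 Tchh UMIs. In 2mo v3 the kept cell with most inner root sheath UMIs (863) held 805 Tchh UMIs. Of 6 proliferation genes, 6 lay above 0 in all kept cells and in keratinocyte-like cells, with medians of 0.46 and 0.96 and none called. In mesenchymal-like cells 1 lay above 0 and 5 below, with a median of -0.34 and none called. Of 10 pigment cell genes, 2 lay above 0 and 8 below (median -5.09), and 0 were called; their summed level was 27.2 CPM in 18mo v2 against 396.6 CPM in 2mo v2, and 28.4 CPM in 12mo v3 against 74.6 CPM in 2mo v3.

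Keratin UMIs were also read in mesenchymal-like cells, a class joining papilla, sheath, fibroblast, arrector pili and pericyte clusters. They had 291 CPM in 18mo v2 against 734 CPM in 2mo v2, and 161 CPM in 12mo v3 against 219 CPM in 2mo v3, beside 33192, 61737, 30646 and 29760 CPM in keratinocyte-like cells of these libraries. A keratin UMI was found in 78.9% of mesenchymal-like cells in 18mo v2, 97.5% in 2mo v2, 80.5% in 12mo v3 and 88.9% in 2mo v3. Macrophage and dendritic-like cells, which should lack keratins, had 213 CPM in 18mo v2, 589 CPM in 2mo v2, 125 CPM in 12mo v3 and 201 CPM in 2mo v3, with a keratin UMI in 74.4%, 99.1%, 54.1% and 77.7% of cells. Mesenchymal-like cells had the higher level in each library, and both classes were highest in the library richest in keratinocytes. With cells thinned to 2000 UMIs, the shares were 40.4%, 76.9%, 27.5% and 34.3% in mesenchymal-like cells. Macrophage and dendritic-like cells then had 33.3%, 70.8%, 18.7% and 35.6%, in the same order. Krt1 and Krt10 were above the macrophage and dendritic-like level beyond counting error in all 4 libraries (Krt10 ratios 1.56, 1.23, 1.93 and 1.18). Krt5 had ratios of 0.681, 0.463, 0.442 and 0.649, below 1 beyond counting error only in 12mo v3 (interval 0.327 to 0.604) and 2mo v3 (interval 0.480 to 0.892). Its intervals included 1 in 18mo v2 (0.377 to 1.29) and 2mo v2 (0.191 to 1.28).

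Suprabasal keratins were the largest part of the keratin UMIs in both mesenchymal-like and keratinocyte-like cells, but the mixtures differed. They made up 79.2% in mesenchymal-like cells of 18mo v2, 88.1% in 2mo v2, 55.4% in 12mo v3 and 55.6% in 2mo v3, beside 74.5%, 91.3%, 49.9% and 69.2% in keratinocyte-like cells. Basal keratins had a lower share in mesenchymal-like cells, at 4.97%, 4.03%, 13.5% and 11.6% in the same order, beside 14.4%, 4.12%, 25.4% and 22.1%. Simple epithelial keratins, with Krt20 among them, had a higher one, at 4.09%, 0.939%, 10.4% and 9.56% beside 0.0400%, 0.0128%, 0.0271% and 0.524%. Krt10 made up 50.9% of the keratin UMIs of mesenchymal-like cells in 18mo v2, 46.9% in 2mo v2, 35.9% in 12mo v3 and 27.7% in 2mo v3, beside 41.6%, 48.1%, 25.7% and 34.2% in keratinocyte-like cells. Its mesenchymal level was 0.597% to 1.16% of the keratinocyte level, that of Krt1 0.580% to 1.09% and that of Krt14 0.253% to 1.20%. Inner root sheath keratins had 5.95 CPM in mesenchymal-like and 4.44 CPM in macrophage and dendritic-like cells of 18mo v2, 2.43 and 1.73 CPM in 2mo v2, 7.83 and 11.4 CPM in 12mo v3, and 27.1 and 29.9 CPM in 2mo v3. They were highest in 2mo v3 in both classes, where 28.9% of mesenchymal-like and 21.4% of macrophage and dendritic-like cells had such a UMI.

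**Figure D4:**
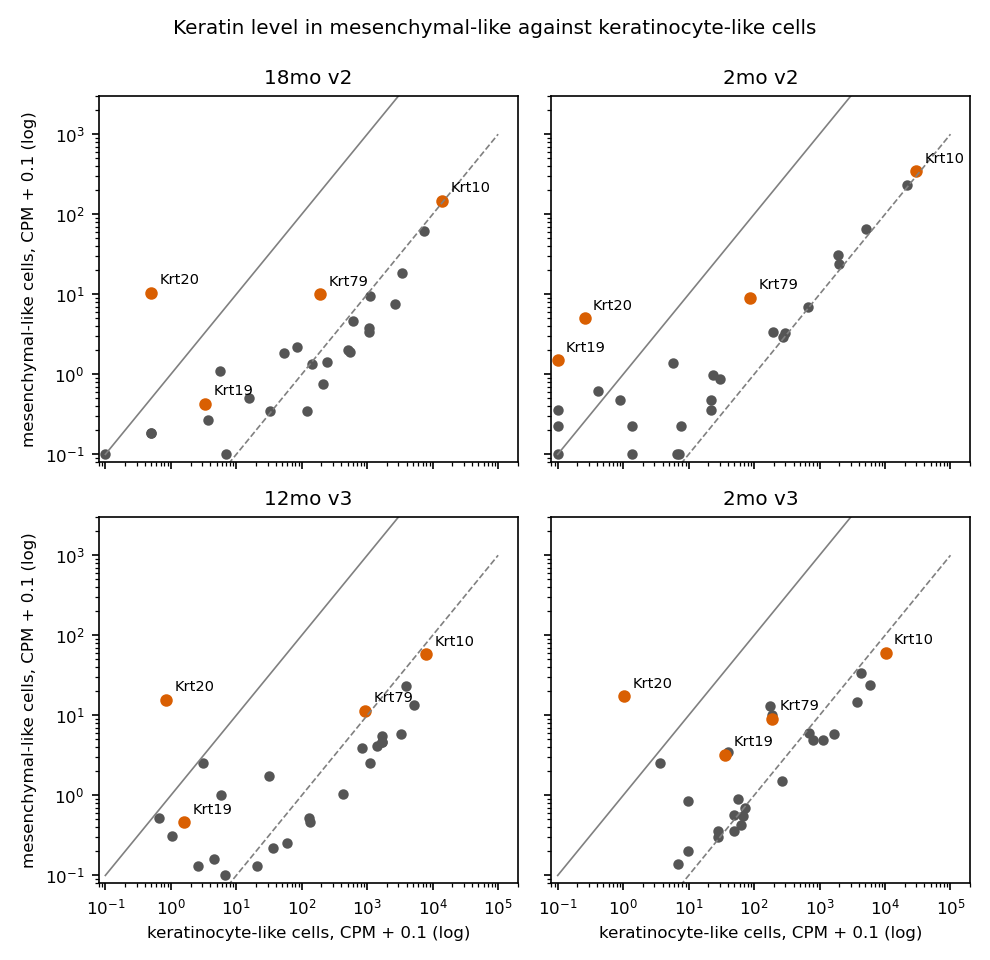
Level of each keratin with at least 50 UMIs in a library in mesenchymal-like cells (vertical) against keratinocyte-like cells (horizontal) of the same library, both as CPM + 0.1 on log axes; the solid line marks equal levels and the dashed line 1 hundredth. Most keratins follow the dashed line, and Krt20 lies above the solid line in all 4 libraries.

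Of the 27 members with at least 50 UMIs in a library, 22 had a lower CPM in mesenchymal-like than in keratinocyte-like cells of each library, 4 were higher in 1 to 3 libraries (Krt18, Krt19, Krt35 and Krt75), and Krt20 was higher in all 4. Krt2 and Krt79 also stood above the usual share. Krt2 in mesenchymal-like cells had 3.26% of its keratinocyte-like level in 18mo v2, 22.5% in 2mo v2, 79.7% in 12mo v3 and 68.7% in 2mo v3, and its level over that of macrophage and dendritic-like cells was 7.16 in 12mo v3 (interval 1.92 to 60.2) and 7.03 in 2mo v3 (interval 1.90 to 58.7), with 2 Krt2 UMIs in macrophage and dendritic-like cells of each. Krt79 had 1.23% to 10.3% of its keratinocyte level, and over macrophage and dendritic-like cells 4.84 in 18mo v2 (interval 2.16 to 13.4), 1.47 in 2mo v2 (interval 0.678 to 3.79), 2.41 in 12mo v3 (interval 1.64 to 3.68) and 5.72 in 2mo v3 (interval 2.98 to 12.6). In the fit on mesenchymal-like cells, edgeR's quasi-likelihood test called 0 of 20 keratins higher, where 2.64% of 14186 genes were, and 2 lower, where 1.88% were. Krt77 fell by 1.86 ± 0.12 on the log2 scale (SE, 2 libraries a side; edgeR adjusted p = 0.00525), with 18.5 CPM in 18mo v2 against 65.9 CPM in 2mo v2, and 5.66 CPM in 12mo v3 against 23.7 CPM in 2mo v3. It was at 0.171% to 1.28% of its keratinocyte level, and macrophage and dendritic-like cells had 19.5 CPM in 18mo v2 against 58.1 CPM in 2mo v2, and 7.23 CPM in 12mo v3 against 32.2 CPM in 2mo v3; the part of keratinocyte RNA in the call was not tested. Without the chemistry covariate, or with the 12mo v3 library counted as young, Krt77 was not called (adjusted p = 1.00 and 0.884).

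Krt20 (chr11:99428403-99438150, minus strand), a type I keratin known in mouse from intestinal epithelium and Merkel cells, stood furthest from this pattern. It had 10.3 CPM in mesenchymal-like cells of 18mo v2, 4.98 CPM in 2mo v2, 15.7 CPM in 12mo v3 and 17.2 CPM in 2mo v3, and keratinocyte-like cells of these libraries held 1, 1, 4 and 7 UMIs. A Krt20 UMI was read in 88 of 1712 mesenchymal-like cells of 18mo v2 (5.14%), 31 of 1239 of 2mo v2 (2.50%), 361 of 2492 of 12mo v3 (14.5%) and 503 of 3805 of 2mo v3 (13.2%). In macrophage and dendritic-like cells the shares were 2.20%, 1.89%, 0.398% and 0.591% in the same order, at median depths of 7302, 9966, 6923 and 7809 UMIs beside 6268, 5433, 12976 and 12505 UMIs in mesenchymal-like cells. The level relative to macrophage and dendritic-like cells was 3.78 in 18mo v2 (interval 1.86 to 8.95), 2.87 in 2mo v2 (interval 0.743 to 24.5), 15.5 in 12mo v3 (interval 7.08 to 42.5) and 24.6 in 2mo v3 (interval 9.56 to 90.4). Mesenchymal-like cells were above the macrophage and dendritic-like level in 3 libraries beyond counting error, and 2mo v2 was not. Endothelium-like cells, a second type that should lack keratins, were few. They had 22.7 CPM of Krt20 in 18mo v2 (4 UMIs, 23 cells), above the mesenchymal-like level. In 2mo v3 they had 9.28 CPM (11 UMIs, 100 cells), and in 2mo v2 (6 cells) and 12mo v3 (35 cells) 0 UMIs. No single cell had more than 10 Krt20 UMIs.

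Krt20 was uneven among mesenchymal clusters. In cluster 16, led by Sema3d and Clic5, it had 56.1 CPM in 18mo v2 (109 cells) and 69.0 CPM in 2mo v2 (11 cells). It had 27.4 CPM there in 12mo v3 (34 cells) and 32.8 CPM in 2mo v3 (1270 cells). The 2mo v2 value rests on few UMIs, since all mesenchymal-like cells of that library held 39 Krt20 UMIs. In cluster 5, a fibroblast-like cluster led by Adam12 and Coch, it had 12.9 CPM in 18mo v2, 13.8 CPM in 2mo v2, 18.7 CPM in 12mo v3 and 48.3 CPM in 2mo v3, where 40.3% of cells held a UMI. In cluster 8, a dermal sheath-like cluster led by Matn4, it had 20.3 CPM in 12mo v3 and 28.8 CPM in 2mo v3. Papilla-like clusters 0 and 2 held 7 Krt20 UMIs in 2mo v3 and none in the other 3 libraries. Among mesenchymal clusters the signal thus lay outside the papilla-like ones, with its highest levels in clusters 5, 8 and 16. Cluster 16 is given by its number because its top 10 genes held 0 markers of its class. Krt12, a cornea keratin whose gene lies 6143 bases from that of Krt20 on the same strand, had 4.20 CPM in cluster 5 of 18mo v2, 3.15 CPM in 2mo v2, 4.33 CPM in 12mo v3 and 1.34 CPM in 2mo v3. With age, the fitted Krt20 difference in mesenchymal-like cells was 0.41 ± 0.28 on the log2 scale (edgeR adjusted p = 0.473).

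The Krt20 promoter is given because Krt20 was the member with more CPM in mesenchymal-like than in keratinocyte-like cells of all 4 libraries. Its TATAAA, in capitals, starts 29 bases before the RefSeq start site.

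Krt20 (chr11:99438104-99438403, minus strand): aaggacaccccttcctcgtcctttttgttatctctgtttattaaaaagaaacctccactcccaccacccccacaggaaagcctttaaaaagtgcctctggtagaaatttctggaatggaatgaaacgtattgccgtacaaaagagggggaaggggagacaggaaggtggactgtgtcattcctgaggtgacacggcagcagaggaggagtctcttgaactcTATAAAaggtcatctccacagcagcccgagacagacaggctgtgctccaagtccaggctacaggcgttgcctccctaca

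Krt19, a type I keratin of simple epithelia and hair follicle stem cells, was concentrated, among mesenchymal-like clusters, in cluster 17, a fibroblast-like cluster led by Sfrp4, Inmt and C3. There it had 23.3 CPM in 18mo v2 against 90.2 CPM in 2mo v2 (4 UMIs against 11), and 47.2 CPM in 12mo v3 against 76.7 CPM in 2mo v3 (10 UMIs against 140). Cells with a UMI made up 9.38% of the cluster in 18mo v2 against 15% in 2mo v2, and 10.3% in 12mo v3 against 32.3% in 2mo v3. The cells behind these shares were few outside 2mo v3. Over all mesenchymal-like cells a Krt19 UMI was read in 3 of 1712 in 18mo v2 against 3 of 1239 in 2mo v2. In the v3 pair it was read in 5 of 2492 in 12mo v3 against 66 of 3805 in 2mo v3. A single cell held 8 of the 11 UMIs of 2mo v2. Keratinocyte-like cells held 8 of the 12 Krt19 UMIs of 18mo v2 and 271 of the 427 of 2mo v3. Macrophage and dendritic-like cells held 2 Krt19 UMIs in 2mo v3 and none in the other libraries. Over all mesenchymal-like cells Krt19 was called lower, by a log2 difference of -2.68 ± 0.47 (SE, 2 libraries a side; edgeR adjusted p = 0.0401), at 0.331 CPM in 18mo v2 against 1.40 CPM in 2mo v2, and 0.362 CPM in 12mo v3 against 3.13 CPM in 2mo v3. Cluster 17 made up 1.87% of mesenchymal-like cells in 18mo v2 (32 of 1712) against 1.61% in 2mo v2 (20 of 1239), and 1.16% in 12mo v3 (29 of 2492) against 4.23% in 2mo v3 (161 of 3805), a share that moved with Krt19 in the v3 pair. DESeq2 did not call it (adjusted p = 0.126), nor did edgeR without the covariate (adjusted p = 1.00), with 12mo v3 as young (0.890), at resolution 1 (0.0707) or without the doublet step (0.0520). It rested on 4, 11 and 12 UMIs in all libraries but 2mo v3.

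**Figure D5:**
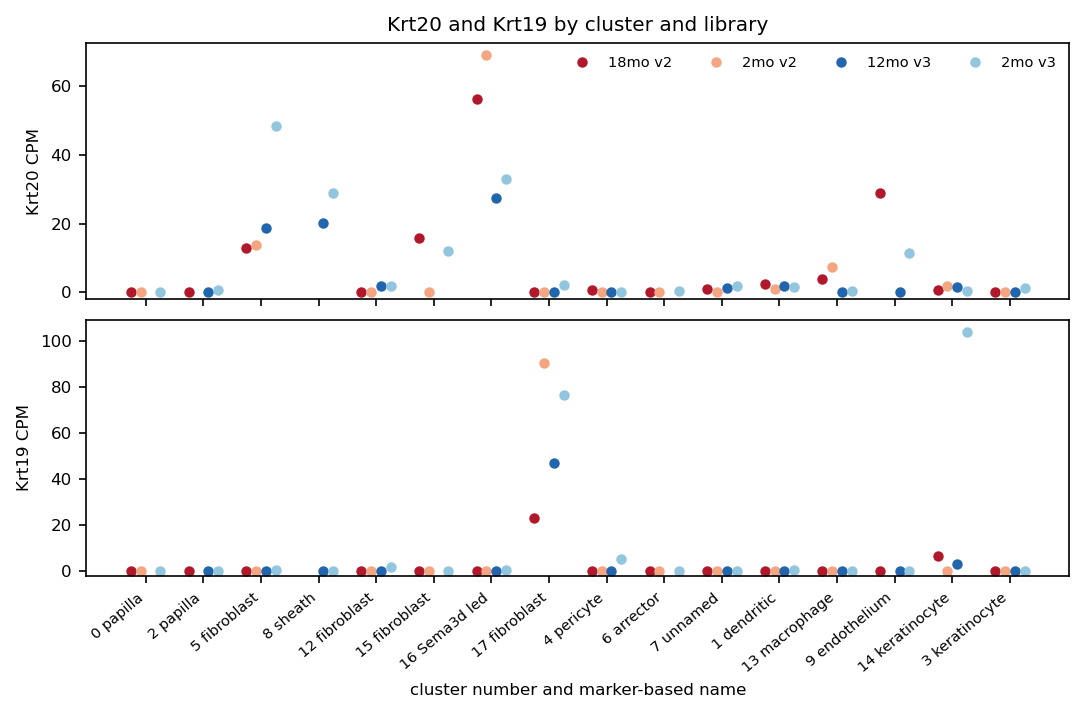
Krt20 (top) and Krt19 (bottom) CPM by cluster and library, for clusters with at least 10 cells in the library. Krt20 is highest in cluster 16 of 18mo v2, 2mo v2 (11 cells) and 12mo v3 and in cluster 5 of 2mo v3, and Krt19 in cluster 17 of all 4 libraries and in cluster 14 of 2mo v3.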

How the data were processed

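Gene expression was measured by droplet single-cell RNA-seq in 4 libraries. The authors deposited raw UMI counts per gene and cell barcode, as sparse matrices. The submitters' processing notes name STAR, Cell Ranger 2.0.1, Seurat 2.1.0 and the builds mm10 and GRCm38.p5 without roles, and the v3 file headers name 3.0.1; which step used which is not given in the sources used here. Groups were taken from the sample labels.

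From the deposited counts, cells were required to show 500 or more genes and 1000 or more UMIs, of which mitochondrial transcripts made up no more than 10%. Scrublet's own threshold called 18, 7, 2 and 111 doublets in 18mo v2, 2mo v2, 12mo v3 and 2mo v3, so the 3% of cells with the highest scores were removed from each library instead. Cells were clustered without keratin and keratin-associated genes (scanpy 1.11.5, 2000 variable genes, 30 principal components, 15 neighbours, Leiden resolution 0.5) and clusters were named from marker lists that hold no keratin. UMIs were summed per library over all kept, keratinocyte-like and mesenchymal-like cells and scaled to CPM.

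Summed counts were tested across all genes with edgeR 4.0.16 (R 4.3.3), the quasi-likelihood test, TMM scaling, chemistry as a covariate and Benjamini-Hochberg adjustment at 0.05; scripts were tested on simulated data. Alternatives were DESeq2 1.42.0, other size factors, filters, age coding, clustering and doublet treatment. Pairs of libraries were compared by ratio with exact Poisson intervals, and shares by exact binomial intervals, at 95%; these cover counting error only.

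Members, groups and lists were chosen with earlier results of these data known. Values are given for each member with at least 50 UMIs in a library, and genes outside the family are named from the 4 with most UMIs in their list, from the keratins outside the rule, or as leading genes of a cluster. Gene positions are from GENCODE vM21 (GRCm38) and promoters from RefSeq.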

Additional observations from a re-analysis of the deposited data

Results flagged for a closer look

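For 4 keratin groups the older library lay on opposite sides of its 2mo library in the v2 and v3 pairs; with 1 library on each side the difference between the pairs was not tested. Over all kept cells the basal ratio was 0.622 for 18mo v2 over 2mo v2 and 1.14 for 12mo v3 over 2mo v3. Outer root sheath and companion layer keratins had ratios of 0.245 in the v2 pair and 2.37 in the v3 pair, and 0.710 and 2.58 within keratinocyte-like cells. Hair shaft keratins had ratios of 11.5 in the v2 pair and 0.805 in the v3 pair, and 45.4 (231 UMIs against 13) and 0.820 within keratinocyte-like cells. Without the top cell of each library these were 7.22 and 0.565 over all kept cells and 27.3 and 0.501 within keratinocyte-like cells, and with removed doublets counted the v2 ratio over all cells was 3.84. Simple epithelial keratins had ratios of 1.48 in the v2 pair and 0.389 in the v3 pair, and 1.69 and 0.0533 within keratinocyte-like cells. Without the top cell the v3 ratios were 0.642 over all kept cells and 0.168 within keratinocyte-like cells.

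Barcodes removed as doublets, which no comparison of kept cells used, held 20 inner root sheath keratin UMIs in 18mo v2 against 1871 in 2mo v2, and 25 in 12mo v3 against 27859 in 2mo v3.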

How the results depend on the processing

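With edgeR's quasi-likelihood test no keratin was called in all kept cells under any alternative but DESeq2, which called 3 higher and 2 lower. In keratinocyte-like cells DESeq2 called 3 higher, DESeq2's size factors in edgeR 1, no filter on low counts 5 higher and 2 lower, and counting the 12-month library as young 5 higher and 2 lower. In mesenchymal-like cells no filter gave 1 higher, and of the 2 lower calls DESeq2 kept 1, resolution 1 kept 1, and no chemistry covariate or the 12-month library as young kept 0. Without the doublet step Krt19 there had an edgeR adjusted p of 0.0520. Log2 group ratios of the v2 pair were, over all deposited barcodes, -0.82 for basal, -2.51 for suprabasal, -2.11 for outer root sheath, 0.67 for inner root sheath and 1.98 for hair shaft keratins. With TMM they were -0.79 for basal, -2.84 for suprabasal and -2.13 for outer root sheath keratins. With the doublet step left out they were -2.72 for suprabasal, 0.42 for inner root sheath and 1.94 for hair shaft keratins, and without the top cell -2.80, -2.12 (outer root sheath), 1.60 and 2.85. In the v3 pair all barcodes gave -0.52 for suprabasal, 1.14 for outer root sheath, -0.56 for inner root sheath, -0.59 for hair shaft and -0.60 for simple epithelial keratins. TMM gave 0.29 for basal, -0.38 for suprabasal, 1.34 for outer root sheath and 2.15 for inner root sheath keratins. Without the doublet step the values were -0.49 for suprabasal, 1.21 for outer root sheath, -0.53 for inner root sheath and -0.67 for simple epithelial keratins, and without the top cell -0.50, 1.21, -0.46 and -0.64, with -0.82 for hair shaft keratins. The inner root sheath direction in the v3 pair thus reversed in 3 of the alternatives. The settings on the doublet step and the top cell for these ratios, and thinning, were chosen after seeing the data. At resolution 1 carriers were 0% for inner root sheath in 18mo v2, 2mo v2 and 2mo v3 and 0.599% in 12mo v3, and 0% for hair shaft, because the cluster that held them had no name. At 3 UMIs inner root sheath carriers were 19.7% in 18mo v2, 22.8% in 12mo v3 and 17.6% in 2mo v3, and thinned 12mo v3 cells had 8.80% and, for hair shaft, 1.39%. Keratin levels in mesenchymal-like cells were 301.9 CPM in 18mo v2 and 253.3 CPM in 2mo v3 without the doublet step, and 151.9 CPM in 12mo v3 at resolution 1. Log2 differences were followed for 7 members in all kept cells, 6 in keratinocyte-like and 6 in mesenchymal-like cells. Among them, Krt18 reversed in all kept cells with the 12-month library as young (0.61) and leaving out 1 library (-4.37 to 0.60). Krt71 reversed over all barcodes (-0.10) and Krt25 in keratinocyte-like cells at resolution 1 (-0.87). Krt20 reversed in mesenchymal-like cells leaving out 1 library (-0.032 to 1.16). Members not followed turned as well. In all kept cells Krt16 had 1.13 without 2mo v2 and -3.38 without 2mo v3, and Krt35 had -0.33 and 4.94. In the same order, Krt19 had -4.53 and 6.74 in keratinocyte-like cells, and Krt71 had -1.59 and 1.10 in mesenchymal-like cells. Except where a cell set or name shows it, the cause was not tested. No paired analysis was possible because, beyond the chemistry covariate that sets each older library against the 2mo library of its chemistry, the groups compared share fewer than 2 replicate numbers. Depth limits members under 50 UMIs to a description.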
